A study of Mus musculus with 23 samples.

Results

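Potassium channel genes were followed across 3 brain regions and 2 diets on 23 one-color Agilent arrays. Each array reads the RNA of 1 sample through the brightness of spots that carry 60-base probes. The genes were chosen by name alone, as every row of the deposited log2 table whose gene name on the array starts with Kcn. The array carried 110 such transcript identifiers under 95 gene names, of which 104 rows of 90 genes passed the filter on low intensities, out of 31395 rows in all. The identifiers left below the filter included those of Kcne1, Kcnj1, Kcnk18, Kcnn1 and Kcnv2, and no value is given for them. The regions were hypothalamus (HT), striatum (ST) and frontal cortex (FC), all taken from female C57BL/6 mice aged 5 weeks at the start of the experiment. They had 8 weeks of either standard chow alone (SC, 4 mice, labeled lean) or a free choice between chow and a chocolate mixture (CM, 4 mice, labeled obese), followed by a behavioral test battery lasting 11 days. There were 4 arrays in each of SC FC, SC ST, SC HT, CM ST and CM HT and 3 in CM FC, because 1 further CM FC array was not used here. The sample labels call the HT arrays thalamic, whereas the study calls them hypothalamic, and the name HT is kept for both.

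Potassium channels let potassium ions leave or enter the cell along their gradient, and by that set the resting potential, the shape of the action potential and the rate of firing. The voltage-gated ones open on depolarization and are built from pore subunits of several subfamilies, some of which are silent on their own and only modify others. Calcium-activated channels couple calcium entry to repolarization, inward rectifiers and two-pore channels hold the resting potential, and auxiliary subunits change gating or transport to the membrane. Neurons of each brain region use their own mixture of these subunits, and astrocytes take up potassium mainly through inward rectifiers. Of the 90 genes, Kcnq1ot1 is a long noncoding RNA from the Kcnq1 locus and Kcnrg encodes a regulator of channels, so that neither is a channel subunit. In whole tissue, fewer cells of a type and less RNA per cell cannot be told apart.

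Values are log2 normalized intensities, and a difference of 1 is a doubling. Rows are called at an adjusted p under 0.05 from 1 limma model of all 31395 rows, and a level of one probe is not set against that of another. Spots marked well above background numbered from 36432 to 42261 per array, and between 91 and 99 of the 104 Kcn rows were detected by that mark on each array. The arrays lay on 3 slides, with 8, 8 and 7 arrays. On CM each region had a slide to itself, with ST on slide 1, HT on slide 2 and FC on slide 3, whereas the SC arrays of each region were spread over 2 or 3 slides. A second model with the slide as a fixed term is called the slide fit. The regions were not clean of each other by their marker genes. The mean log2 intensity of 8 striatum markers was 11.74 to 12.29 on 4 FC arrays (SC mice 54, 56 and 58, CM mouse 58) and 9.92 to 10.29 on the other 3. The mean of 6 cortex markers was 10.24 and 9.49 on the ST arrays of SC mice 54 and 58 and 6.56 to 9.19 on the remaining ST arrays. The ST array of SC mouse 52 had a mean of hypothalamus markers of 11.26, against 7.14 to 9.23 on the other ST arrays. Its mean of thalamus markers (9.47) was the highest outside HT. It was the only SC ST array on slide 1, so that all differences within slide 1 that involve SC ST rest on it. The HT array of SC mouse 54 had the lowest mean of 9 hypothalamus markers among the HT arrays (9.56 against 10.66 to 13.32) and the highest mean of striatum markers (11.70 against 10.07 to 10.81). The mean of 6 thalamus markers was 10.30 to 11.78 on HT arrays and 7.11 to 9.47 on the others.

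Kcn rows differed between regions more often than the rows of the array as a whole. On SC, 62 of 104 rows were called in the HT-FC contrast (20 higher in HT, 42 lower), which is 59.6% of them, where 43.2% of all rows were called (22.8% higher, 20.4% lower). In the HT-ST contrast 50 rows were called (19 higher in HT, 31 lower), 48.1% of them against 21.5% of all rows (10.7% higher, 10.8% lower). In the ST-FC contrast 34 rows were called (10 higher in ST, 24 lower), 32.7% against 14.9% of all rows (7.71% higher, 7.22% lower). The median size of the log2 difference over the 104 rows was 0.62, 0.47 and 0.42 in the HT-FC, HT-ST and ST-FC contrasts, and 0.32, 0.22 and 0.22 over all rows. At least 1 of the 3 contrasts was called for 77 Kcn rows of 67 genes, 74% of them against 50.2% of all rows. In the slide fit, 38, 38 and 33 Kcn rows were called, against 14.8%, 15% and 10.9% of all rows. The same contrasts on CM gave 78, 80 and 71 Kcn rows against 57.8%, 56.3% and 60.6% of all rows, but there each region lay on a slide of its own, so that region and slide cannot be told apart. Markers of glia moved with the regions as well. The mean of 5 oligodendrocyte markers was 12.83 to 13.83 on FC arrays and 13.87 to 14.44 on ST and HT arrays, and on SC 4 of the 5 were called higher in ST and 4 higher and 1 lower in HT, both against FC. The mean of 5 microglia markers was 10.46 to 10.76 on HT arrays and 10.89 to 11.35 elsewhere, and on SC 4 of the 5 were called lower in HT than in FC and all 5 lower than in ST. Their part in the Kcn differences between regions was not tested.

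On SC, 3 genes of different subfamilies had the widest falls from FC to HT. Kcnj4 encodes a strong inward rectifier of forebrain neurons, Kcnh3 a voltage-gated subunit of the EAG family, and Kcnv1 a silent subunit that modifies other voltage-gated channels. Kcnj4 read 13.81, 14.90, 13.33 and 13.67 on the SC FC arrays, 13.59, 13.76, 14.15 and 14.02 on the SC ST arrays and 9.74, 11.37, 9.61 and 9.25 on the SC HT arrays, in the order of mice 52, 54, 56 and 58. FC and ST overlapped for Kcnj4, and every HT array lay below them on both diets, where the CM HT arrays read 9.24, 8.38, 8.51 and 10.44. Its difference was -3.82 ± 0.52 (SE, adjusted p = 1.11e-05) in the HT-FC contrast, which is 14.1-fold lower, and -3.97 ± 0.56 (SE, adjusted p = 2.63e-05) in the HT-ST contrast, 15.7-fold lower.

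Kcnh3 read 14.75 to 15.06 in SC FC, 14.10 to 14.56 in SC ST and 9.62, 11.36, 11.46 and 9.94 in SC HT. Its difference was -3.97 ± 0.39 (SE, adjusted p = 2.74e-07) in the HT-FC contrast and -3.39 ± 0.42 (SE, adjusted p = 6.32e-06) in the HT-ST contrast, which are 15.7-fold and 10.5-fold lower. FC and ST did not overlap for Kcnh3, but their difference was not called (-0.58 ± 0.46 SE, adjusted p = 0.434). The HT values of Kcnh3 and Kcnj4 spread over more than 1 log2 unit between mice, and the mice did not rank alike for both genes: mouse 54 was highest for Kcnj4 and close to mouse 56 for Kcnh3. The HT array of mouse 54 was the one with the most striatum marker signal, and that of mouse 56 had the most cortex marker signal (7.03 against 5.85 to 6.20 on the other HT arrays). The part of these markers in the Kcnj4 and Kcnh3 values was not tested.

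Kcnv1 was graded over the regions, with 11.77, 10.81, 11.34 and 10.93 in SC FC, 9.90, 10.86, 9.77 and 10.35 in SC ST and 6.09, 7.37, 8.18 and 7.30 in SC HT. It fell by 3.70 ± 0.35 log2 units (SE, adjusted p = 1.56e-07) from FC to HT, and its ST-FC difference was -1.04 ± 0.41 (SE, adjusted p = 0.0939), with FC and ST overlapping. Kcnip2, which encodes a calcium-binding partner of the A-type channels that delay firing, was lowest in HT as well. It read 9.69, 10.34, 9.90 and 9.92 in SC FC, 10.97, 10.58, 10.98 and 11.79 in SC ST and 7.92, 8.64, 7.67 and 8.07 in SC HT, so that no 2 regions overlapped. Its HT-ST difference was -2.96 ± 0.31 (SE, adjusted p = 1.1e-06), 7.76-fold lower, and its HT-FC difference -1.97 ± 0.29 (SE, adjusted p = 2.77e-05).

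Kcnj5, a subunit of the inward rectifiers opened by G proteins, ran the opposite way and was the widest rise in HT. It read 5.30, 5.44, 5.60 and 6.22 in SC FC, 7.53, 5.86, 7.14 and 6.25 in SC ST and 8.86, 9.41, 8.61 and 9.40 in SC HT, and was detected on 2 of the 4 SC FC arrays. Every HT array exceeded every ST and FC array. The difference was 3.26 ± 0.33 (SE, adjusted p = 3.07e-07) in the HT-FC contrast, 9.59-fold higher, and 2.20 ± 0.35 (SE, adjusted p = 9.89e-05) in the HT-ST contrast, 4.59-fold higher. The other subunits of this channel type on the array, Kcnj3, Kcnj6 and Kcnj9, were not higher in HT than in FC. Their HT-FC differences were -0.84 ± 0.22 (SE, adjusted p = 0.00448), -0.84 ± 0.17 (SE, adjusted p = 0.000451) and -0.34 ± 0.18 (SE, adjusted p = 0.134). The call of Kcnj3 was lost in the slide fit and that of Kcnj6 was kept.

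**Figure D1:**
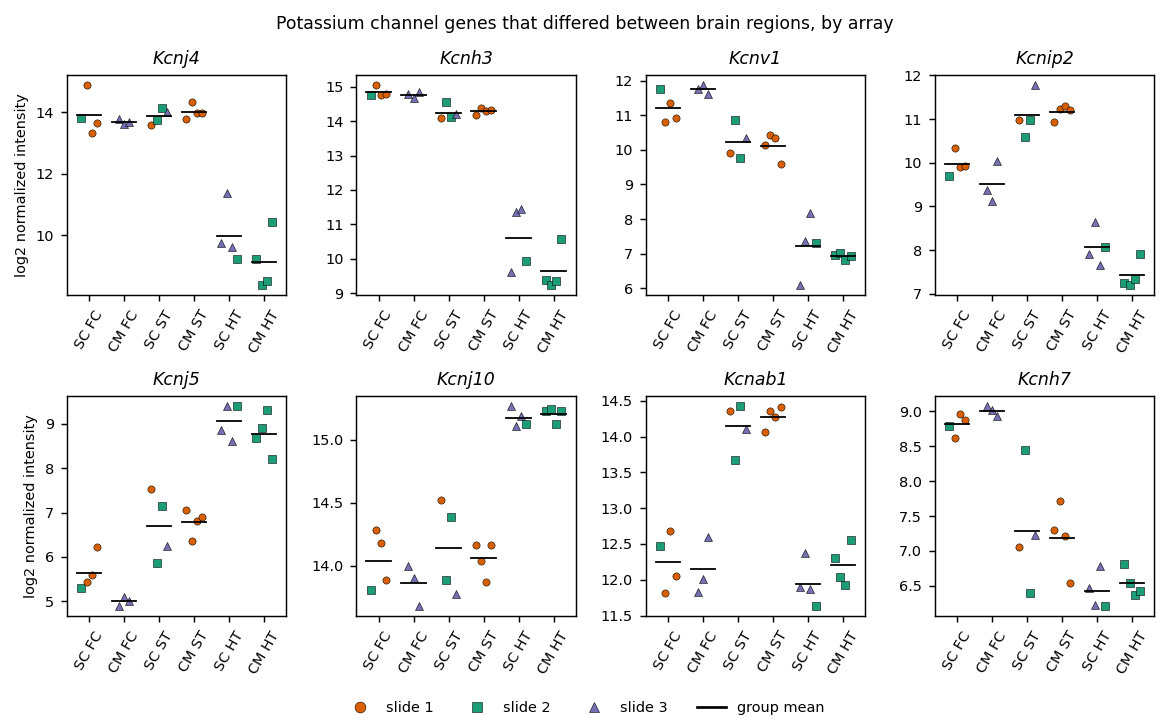
Log2 normalized intensity of 8 Kcn genes on each of the 23 arrays, by region and diet, with 1 point per array, its shape and color giving the slide, and a line at the group mean. Kcnj4, Kcnh3, Kcnv1 and Kcnip2 were lowest in HT, Kcnj5 and Kcnj10 highest in HT, Kcnab1 highest in ST and Kcnh7 highest in FC.

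The start regions of genes with wide differences between HT and the other regions are shown as sequence context, although no binding or methylation was measured. Of the 90 genes 67 were searched in the RefSeq promoter table of build GRCm38.p6, where Kcnh3 and Kcnv1 had none. The 250 bases before the start are given 5′ to 3′ for Kcnj4 and Kcnip2, which fell in HT, and for Kcnj5, which rose. They lie on the minus strand at chr15:79505242-79505491, chr19:45816064-45816313 and chr9:32344345-32344594. Capitals mark the letters GGGCGG (GC box) and CCAAT on either strand.
Kcnj4: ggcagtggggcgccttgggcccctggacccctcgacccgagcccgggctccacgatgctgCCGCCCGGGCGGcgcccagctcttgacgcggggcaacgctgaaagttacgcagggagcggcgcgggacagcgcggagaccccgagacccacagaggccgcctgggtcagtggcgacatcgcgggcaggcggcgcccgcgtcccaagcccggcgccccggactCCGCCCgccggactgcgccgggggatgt
Kcnip2: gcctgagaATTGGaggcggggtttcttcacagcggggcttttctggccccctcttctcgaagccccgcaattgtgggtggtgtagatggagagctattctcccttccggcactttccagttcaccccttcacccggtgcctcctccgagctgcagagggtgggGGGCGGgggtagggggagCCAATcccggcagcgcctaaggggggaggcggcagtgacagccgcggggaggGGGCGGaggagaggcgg
Kcnj5: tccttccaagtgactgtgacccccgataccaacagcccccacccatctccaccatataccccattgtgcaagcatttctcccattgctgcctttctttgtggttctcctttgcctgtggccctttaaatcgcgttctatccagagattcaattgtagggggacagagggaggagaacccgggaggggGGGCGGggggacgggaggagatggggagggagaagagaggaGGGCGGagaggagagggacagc
Each of the 3 held at least 1 GC box, Kcnip2 alone also held CCAAT, and none held the other motifs searched. Over the 67 Kcn promoters, GGGCGG was found in 50.7%, CCAAT in 29.9%, the TATA box letters TATAAA in 2.99%, the E-box letters CACGTG in 5.97% and the cyclic AMP response letters TGACGTCA in 0 of 67, on either strand. None of these letter strings holds another. In all 27025 promoters of the table at the same length the shares were 32.9%, 34.5%, 13%, 6.05% and 1.62%.

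The glial inward rectifiers rose together in HT. Kcnj10 is the main potassium uptake channel of astrocytes, and Kcnj16 encodes a subunit that pairs with it. Kcnj10 read 13.81 to 14.28 in SC FC, 13.78 to 14.52 in SC ST and 15.11 to 15.27 in SC HT. Its HT-FC difference was 1.1 ± 0.13 (SE, adjusted p = 3.05e-06) and its HT-ST difference 0.96 ± 0.14 (SE, adjusted p = 5.07e-05). Kcnj16 rose by 1.17 ± 0.17 (SE, adjusted p = 4.81e-05) from ST to HT and by 0.47 ± 0.16 (SE, adjusted p = 0.0231) from FC to HT. The second of these calls was lost without the HT array of SC mouse 56 or 58 or the FC array of SC mouse 56, and the slide fit gave 1.22 for it. The mean of 6 astrocyte markers was 11.58 to 11.90 on the SC HT arrays, 11.34 to 11.62 on SC ST and 11.35 to 11.90 on SC FC, and 2 of the 6 markers were called higher and 1 lower in each of the contrasts with HT. Their part in the Kcnj10 and Kcnj16 differences was not tested.

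Kcnh2 and Kcne1l also rose in HT. Kcnh2 encodes the pore of the ERG channels, which are known for repolarization of the heart, and Kcne1l a small accessory subunit. Kcnh2 read 9.68 to 9.99 in SC HT against 8.42 to 9.19 in SC FC and 8.32 to 8.81 in SC ST, with an HT-FC difference of 1.15 ± 0.18 (SE, adjusted p = 3.53e-05) and an HT-ST difference of 1.14 ± 0.19 (SE, adjusted p = 0.000151). Kcne1l differed by 1.19 ± 0.23 (SE, adjusted p = 0.000314) between HT and FC. Kcnc2, whose fast channels let interneurons fire at high rates, read 10.79 to 11.52 in SC HT against 9.48 to 10.43 in SC ST, a difference of 1.19 ± 0.21 (SE, adjusted p = 0.000277). The list read for interneurons held Pvalb, Gad1, Gad2, Sst and Vip, of which Gad1 and Gad2 mark inhibitory neurons at large. The mean of these 5 markers was 11.69 to 12.28 on the SC HT arrays and 12.47 to 12.89 on the SC ST arrays, and 2 of the 5 were called lower in HT and none higher. Their part in the Kcnc2 difference was not tested. Kcnip4 and Kcnip1, 2 further partners of A-type channels, were higher in HT than in ST by 0.99 ± 0.16 and 1.06 ± 0.22 (SE, adjusted p = 0.000105 and 0.00151), and Kcnip3, which also acts as a transcriptional repressor, was lower by 0.43 ± 0.14 (adjusted p = 0.0262), a call that was lost without the ST array of SC mouse 54 or the HT array of SC mouse 56 or 58. The 4 genes of this partner family thus did not share a direction between HT and ST.

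The striatum was marked above all by Kcnab1, a cytoplasmic beta subunit that speeds inactivation of voltage-gated channels. It read 14.36, 13.67, 14.43 and 14.11 in SC ST, 12.47, 11.81, 12.67 and 12.05 in SC FC and 11.90, 12.38, 11.88 and 11.63 in SC HT, and ST did not overlap the other regions on either diet. The ST-FC difference was 1.91 ± 0.30 (SE, adjusted p = 0.00101), 3.77-fold higher, and the HT-ST difference -2.24 ± 0.28 (SE, adjusted p = 6.12e-06). Within slide 1 the ST array exceeded the mean of the FC arrays by 2.19, and within slide 2 the ST arrays exceeded the FC array by 1.58. Kcnk2, a two-pore channel opened by stretch and lipids, read 8.17 to 8.87 in SC ST against 7.45 to 7.70 in SC FC and 6.61 to 6.99 in SC HT, with differences of 0.96 ± 0.22 (SE, adjusted p = 0.00794) from FC and, for HT against ST, -1.70 ± 0.20 (SE, adjusted p = 4.33e-06). Kcna5 was higher in ST than in FC by 0.95 ± 0.22 (SE, adjusted p = 0.00808), and Kcnh4, a relative of Kcnh3, by 0.61 ± 0.15 (SE, adjusted p = 0.00965). Kcnk2 and Kcnh4 separated all 3 regions, Kcnh4 with 6.88 to 7.03 in SC HT, 8.21 to 8.34 in SC FC and 8.61 to 9.51 in SC ST. Kcnd2, a pore subunit of the A-type channels, differed by 0.67 ± 0.16 (SE, adjusted p = 0.0102) between ST and FC, but there the arrays overlapped and the call was lost without the ST array of SC mouse 52 or 56.

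Among called genes whose SC FC and SC ST arrays did not overlap, the widest falls from FC to ST were in Kcnh7, Kcnb2, Kcnj3 and Kcnj6. Kcnh7 encodes an ERG channel, Kcnb2 a delayed rectifier, and Kcnj3 and Kcnj6 the common neuronal channel opened by G proteins. Kcnh7 read 8.79, 8.62, 8.97 and 8.88 in SC FC and 7.06, 8.45, 6.39 and 7.24 in SC ST, a difference of -1.76 ± 0.36 (SE, adjusted p = 0.00358). Its ST values were the most spread of these 4 genes, and the array of mouse 54, which was closest to FC, was also the ST array with the most cortex marker signal, whose part was not tested. Kcnb2 read 8.93, 9.62, 8.97 and 8.78 in SC FC and 7.79, 8.00, 7.63 and 7.03 in SC ST, a difference of -1.36 ± 0.20 (SE, adjusted p = 0.000648). Kcnj3 and Kcnj6 differed by -1.22 ± 0.26 (SE, adjusted p = 0.00469) and -1.03 ± 0.19 (SE, adjusted p = 0.00244), and their relative Kcnj9 by -0.82 ± 0.21 (SE, adjusted p = 0.0134).

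The ST-FC count on SC depended on single arrays. The ST array of SC mouse 56 had the largest weight of its group in the model (1.06, against 0.27, 0.52 and 0.22 for mice 52, 54 and 58). Its mean of cortex markers was 7.74, against 7.92 for mouse 52, and the part of either was not tested. Without this array of mouse 56, 11 Kcn rows were called in place of 34, where 5.92% of all rows were called, and 9 of the 11 were among the 34. Of the 8 genes named for that contrast, Kcnab1 and Kcnb2 kept their calls and Kcnk2, Kcna5, Kcnh4, Kcnh7, Kcnj3 and Kcnj6 lost them, as did Kcnj9 and Kcnmb4. Without the ST array of SC mouse 52 the count was 21, against 12.2% of all rows. The HT-ST count stayed between 44 and 56, and the HT-FC count between 58 and 63, with any 1 array left out.

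**Figure D2:**
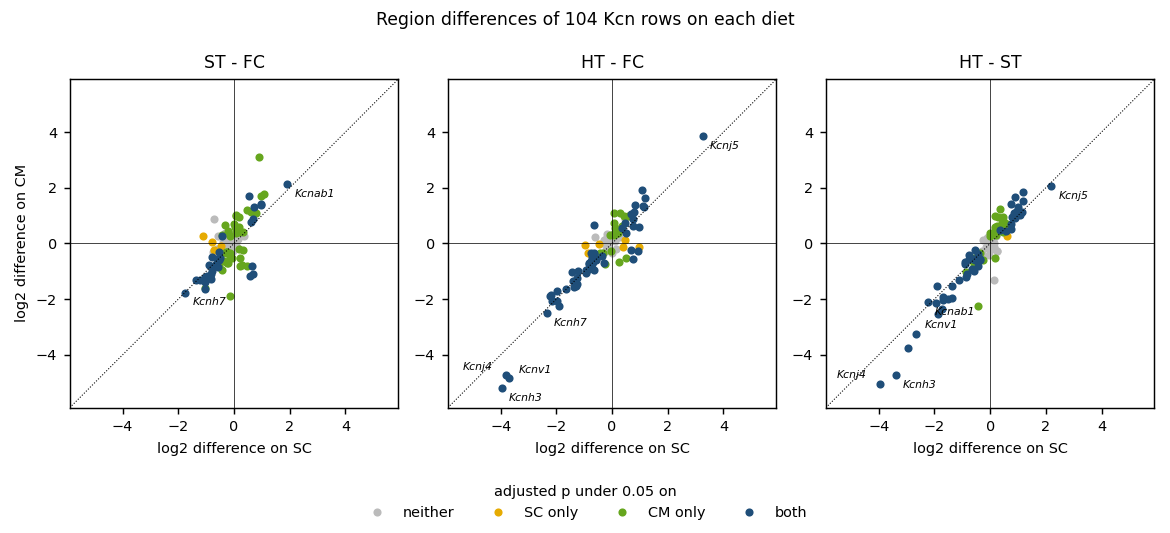
Log2 difference between 2 regions on CM (vertical axis) against the same difference on SC (horizontal axis) for each of the 104 Kcn rows, in the ST-FC, HT-FC and HT-ST contrasts, colored by the diets on which the row was called. HT-ST points lay near the line of equality, whereas 4 rows in each of the other contrasts were called on both diets with opposite signs.

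Each region contrast was measured separately in the 2 diet groups, on different mice. In the HT-ST contrast, 49 of the 50 rows called on SC were called in the same direction on CM and none in the opposite one. In the HT-FC contrast 52 of 62 were called alike and 4 in opposite directions, and in the ST-FC contrast 26 of 34 alike and 4 in opposite directions. These are 98%, 83.9% and 76.5% of the Kcn rows called on SC, where 92.8%, 63% and 55.5% of all rows called on SC were called alike on CM and 15, 1594 and 1191 of them in opposite directions, so that in the HT-ST contrast the Kcn share lay near that of the array. Rows called alike on both diets made up 19.9%, 27.2% and 8.28% of all rows tested in these 3 contrasts. The rows called in opposite directions were Kcna4, Kcna7, the BC048782 row of Kcna6 and the NM_206974 row of Kcnrg between ST and FC, and Kcna4, Kcna7, the NM_008423 row of Kcnd1 and the NM_001039105 row of Kcnrg between HT and FC. Kcnj4 fell by 4.73 from FC to HT on CM, Kcnh3 by 5.21 and Kcnv1 by 4.84, and Kcnj5 rose by 3.85. The ST-FC difference of Kcnab1 on CM was 2.13, and that of Kcnh7 was -1.77.

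The subfamilies leaned in different directions in the HT-FC contrast on SC, where the median log2 difference was -0.23 over the 104 Kcn rows and 0.02 over all rows. Of 9 rows of silent voltage-gated subunits, 6 were lower in HT and 1 was higher (Kcng4), with a median of -1.29, and the 6 were Kcnf1, Kcng1, Kcng3, Kcns1, Kcns2 and Kcnv1, with Kcns1 at -2.25 ± 0.23 and Kcng1 at -2.19 ± 0.20 (SE, adjusted p = 3.94e-07 and 1.41e-07). Of 10 rows of the KCNQ family, whose channels carry the muscarinic M-current, 8 were lower and none higher, including both rows of Kcnq5 (-1.92 ± 0.14 and -2.15 ± 0.15, SE), with a family median of -0.74. Of 9 rows of the EAG, ERG and ELK family 5 were lower and 2 higher, with a median of -0.95. Kcnb2, a delayed rectifier subunit of neurons, fell by 1.25 ± 0.17 (SE, adjusted p = 9.33e-06).

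Of 8 rows of calcium- or sodium-activated channels and their relative Kcnu1, 6 were lower, Kcnu1 among them, and none higher, with a median of -0.63. They included both rows of Kcnma1, the large-conductance channel, and Kcnn2, a small-conductance one, at -0.58 ± 0.13 (SE, adjusted p = 0.00152). Kcnmb4, the neuronal beta subunit of the large-conductance channel, was lower as well, with differences of -0.78 ± 0.16 (SE, adjusted p = 0.00425) for ST and -1.38 ± 0.14 (SE, adjusted p = 3.32e-07) for HT, both against FC. Of 14 inward rectifier rows 4 were higher and 5 lower, with Kcnj2, a relative of Kcnj4, at -1.42 ± 0.21 (SE, adjusted p = 3.1e-05). The medians were -0.13 for the inward rectifiers, 0.07 for 13 two-pore rows (3 higher, 4 lower) and -0.18 for 17 auxiliary rows (3 higher, 5 lower). Of 5 Kv3 rows, whose channels serve fast firing, 2 were higher in HT than in FC, where 22.8% of all rows were higher. In HT against ST 4 were higher, where 10.7% of all rows were, and none was lower in either contrast. The HT-FC rises, of Kcnc2 and the NM_001112739 row of Kcnc1, were not called in the slide fit. Nor were the HT-ST rises of both Kcnc1 rows, while that of Kcnc2 was.

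The rises of Kv1 and Kv4 rows in HT were not called in the slide fit. Of 9 Kv1 rows 3 were higher in HT than in FC and none lower, and of 5 Kv4 rows 2 were higher, both of Kcnd1. The 3 Kv1 rows (Kcna4, the BC048782 row of Kcna6, and Kcna7) and the NM_008423 row of Kcnd1 were below all other arrays on the 8 arrays of slide 1, and 3 of the 4 SC FC arrays lay on slide 1. Their HT-FC differences in the slide fit went from 0.91 to 0.37, from 0.98 to -0.22, from 0.75 to -0.19 and from 0.67 to -0.08, and none was called. The ENSMUST00000009875 row of Kcnd1, which did not separate slide 1 from the rest, went from 0.39 to 0.06 and was not called there either. Kcna1 and Kcna2, the axonal subunits of the Kv1 family, were called in none of the 3 region contrasts on SC, with means of 13.35 ± 0.23, 13.62 ± 0.29 and 13.09 ± 0.43 for Kcna1 and 10.17 ± 0.15, 10.17 ± 0.17 and 10.04 ± 0.21 for Kcna2 in FC, ST and HT (SD, n = 4).

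The CM-SC contrast compared the 2 diet groups in each region after the 8 weeks and the test battery. By the study's own account, its design cannot separate effects of the diet, the battery and their interaction. During the battery, SC mice were also given the chocolate mixture for limited periods. No Kcn row passed the study's thresholds, which required a 2-fold change at an adjusted p under 0.01 for FC or ST but a 1.5-fold change at 0.05 for HT, and which 2.94%, 0.602% and 0.178% of all rows passed in FC, ST and HT. At an adjusted p under 0.05 and with no fold limit, 22 rows of 19 genes were called in FC (11 higher on CM, 11 lower), 21.2% of the Kcn rows against 28.6% of all rows (15.4% higher, 13.2% lower). In ST 9 rows were called (4 higher, 5 lower), 8.65% against 9.82% (3.45% higher, 6.37% lower). In HT limma called none, against 0.43% of all rows, while 11 Kcn rows had an unadjusted p under 0.05 (10.6%, against 13.2% of all rows), and 1 or 2 rows were called without the HT array of SC mouse 52 or 58 or of CM mouse 58. The share of Kcn rows called in this model lay below that of all rows in FC and near it in ST and HT. The FC count was 14 without the array of SC mouse 54 or CM mouse 54. The ST count was 15 without the array of SC mouse 54 and 25 without that of SC mouse 56, where 18.5% and 16.1% of all rows were called. The slide fit called no Kcn row in any region, and at an unadjusted p under 0.05 there were 9, 7 and 1 in FC, ST and HT, which is 8.65%, 6.73% and 0.962% of the Kcn rows against 7.07%, 4.48% and 2.69% of all rows. In FC no slide held both diets, so that the slide fit relied there on slide differences seen in the other regions. Its standard errors could be wider, as for Kcnj11 in FC (0.21, against 0.10 without a slide term). The lack of a call in this fit therefore does not show that the diet groups were alike. With a random slide block, 4 Kcn rows were called in FC and 0 in ST and HT.

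Kcna7 and Kcna4, pore subunits of the Kv1 family, had the largest rises in FC among genes without overlap between SC and CM arrays. Kcna7 read 8.79, 8.21, 8.15 and 8.10 on the SC FC arrays and 9.17, 9.28 and 9.18 on the CM FC arrays, a difference of 1.0 ± 0.13 (SE, adjusted p = 4.13e-05) or 1.99-fold higher. Kcna4 read 11.37, 10.95, 10.74 and 10.83 on SC and 11.80, 11.89 and 11.75 on CM, a difference of 0.93 ± 0.12 (SE, adjusted p = 3.83e-05) or 1.91-fold higher. SC and CM did not overlap in FC for either gene. In ST both ran the other way, with differences of -0.73 ± 0.14 (SE, adjusted p = 0.00534) and -0.54 ± 0.13 (SE, adjusted p = 0.0147), and there SC and CM overlapped.

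The values of these 2 genes followed the slide. On the 8 arrays of slide 1, Kcna7 read 7.94 to 8.21 and on the other 15 it read 8.60 to 9.28, and Kcna4 read 10.72 to 11.13 on slide 1 and 11.37 or more elsewhere. The only SC FC array on slide 2 was that of mouse 52, which read 8.79 for Kcna7, and the only SC ST array on slide 1, again of mouse 52, read 7.99. Within slide 1, the 4 CM ST arrays differed from that SC ST array by 0.07 for Kcna7 and -0.05 for Kcna4. Of the 104 Kcn rows 6 separated slide 1 from all other arrays (5.77%, against 5.93% of all rows), and those below the other arrays were Kcna4, Kcna7, Kcnk16, the BC048782 row of Kcna6 and the NM_008423 row of Kcnd1. No Kcn row separated slide 2 or slide 3 from the rest. In FC no slide held both diets, so that within-slide values cannot be given. In the slide fit the FC differences of Kcna7 and Kcna4 were -0.01 and 0.38, neither of them called, and with a random slide block both were called.

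**Figure D3:**
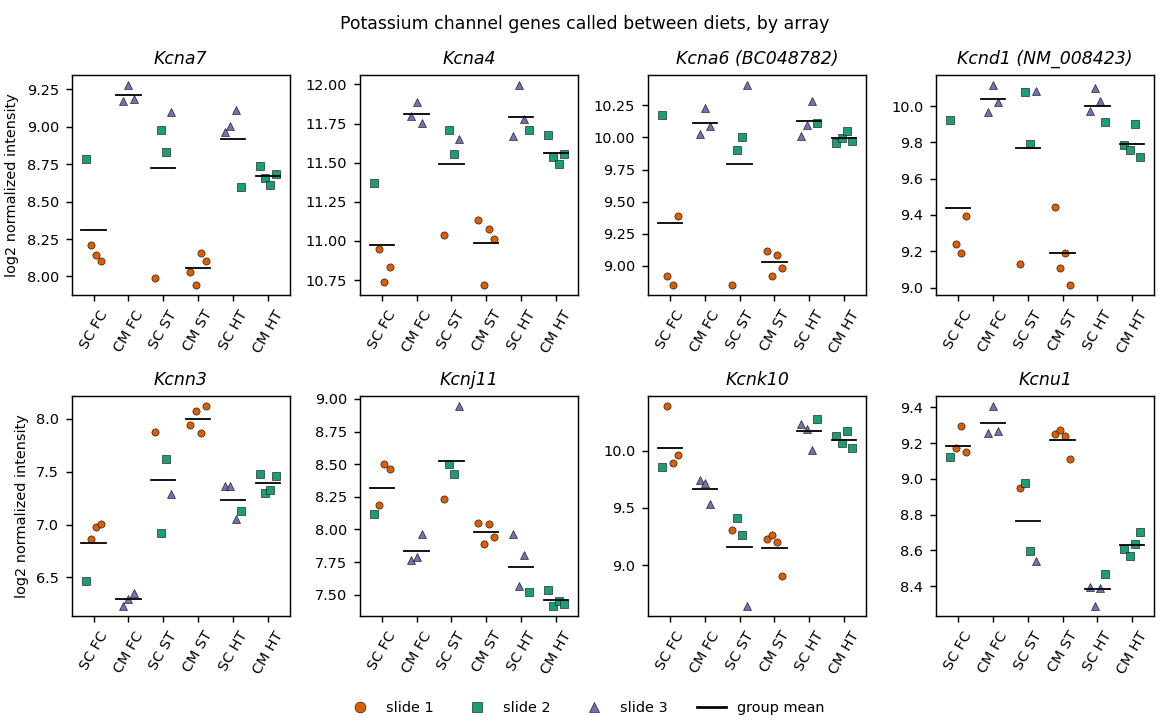
Log2 normalized intensity of 8 Kcn rows called between diets, with 1 point per array, its shape and color giving the slide, and a line at the group mean. For Kcna7, Kcna4, the BC048782 row of Kcna6 and the NM_008423 row of Kcnd1, all slide 1 arrays lie below all other arrays in every region, while Kcnj11 is lower on CM in FC and in ST.

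Kcnj15, an inward rectifier, followed in that order. Its spot was not well above background on any of the 4 SC FC arrays and was so on all 3 CM FC arrays, at 4.42 to 5.25 and 5.63 to 5.93. The fitted difference of Kcnj15 was 0.79 ± 0.27 (SE, adjusted p = 0.0313), and no fold is given because the SC level was near background. Its difference in the slide fit was -0.16. The call was lost without the FC array of SC mouse 54 or 58 or of CM mouse 54.

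With each gene taken by its row of highest mean, Kcnn3, Kcnj11 and Kcnk10 had the largest falls in FC among called genes without overlap between SC and CM arrays. Kcnj5 (-0.70) and Kcna10 (-0.66) fell further without overlap but were not called. A second row of Kcnrg (NM_001039105) was called and fell further, by 0.98, also without overlap. Kcnj11 encodes the pore of the ATP-sensitive potassium channel, which links membrane potential to the energy state of the cell. It read 8.12, 8.19, 8.50 and 8.46 on the SC FC arrays and 7.76, 7.79 and 7.96 on the CM FC arrays, a difference of -0.55 ± 0.10 (SE, adjusted p = 0.00065) or 1.47-fold lower. In ST it read 8.23, 8.50, 8.43 and 8.95 on SC and 8.05, 7.89, 8.04 and 7.94 on CM, a difference of -0.48 ± 0.11 (SE, adjusted p = 0.0135) or 1.39-fold lower, again without overlap. In HT it read 7.97, 7.56, 7.80 and 7.52 on SC and 7.54, 7.41, 7.45 and 7.43 on CM, a difference of -0.28 ± 0.09 (SE, adjusted p = 0.139), and the groups overlapped. Kcnj11 was the 1 gene called in the same direction in FC and ST. Within slide 1 the CM ST arrays differed from the SC ST array by -0.25, and in the slide fit the differences were -0.90, -0.44 and 0.07 in FC, ST and HT, none of them called. With a random slide block, the FC difference was called and the ST difference was not. The channel's regulatory subunits are the sulfonylurea receptors, of which Abcc8 differed by 0.06 in FC (adjusted p = 0.731) and Abcc9 by -0.82 (adjusted p = 5.00e-04).

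Kcnn3, a small-conductance calcium-activated channel, read 6.47, 6.86, 6.98 and 7.01 on SC and 6.23, 6.30 and 6.35 on CM in FC, a difference of -0.61 ± 0.13 (SE, adjusted p = 0.0014), and in ST the difference was 0.54 ± 0.14 (SE, adjusted p = 0.0203) in the opposite direction. The slide fit gave -0.18 and 0.13 for the pair. Kcnk10, a two-pore channel related to Kcnk2, differed by -0.34 ± 0.12 (SE, adjusted p = 0.0361) in FC, and by 0.17 in the slide fit. That call was lost without the FC array of SC mouse 54 or 58 or of CM mouse 58.

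Of the other rows called in FC, Kcng2, a silent subunit, differed by 0.97 ± 0.25 (SE, adjusted p = 0.00663), the BC048782 row of Kcna6 by 0.95 ± 0.17 (SE, adjusted p = 0.000447) and the NM_008423 row of Kcnd1, an A-type pore subunit, by 0.69 ± 0.13 (SE, adjusted p = 0.000599). In the slide fit these were -0.14, -0.27 and -0.07. Kcnq1ot1, Kcnk16, the ENSMUST00000009875 row of Kcnd1 and the NM_001112739 row of Kcnc1 rose by 0.58, 0.43, 0.33 and 0.51. In the slide fit these 4 were 0.53, -0.11, -0.01 and 0.11. Of all 22 rows called in FC, 10 had the opposite sign in the slide fit, which is 45.5% of them, against 32.7% of all rows called. Among the falls, the 2 rows of Kcnrg differed by -0.98 and -0.46, and by -0.13 and 0.09 in the slide fit. Kcnq1, a KCNQ subunit known from heart and epithelia, differed by -0.66 ± 0.19 (SE, adjusted p = 0.0117) and Kcng1 by -0.55 ± 0.19 (SE, adjusted p = 0.0309), and the slide fit gave -0.66 ± 0.39 and -0.54 ± 0.40 (SE), neither of them called (adjusted p = 0.785 and 0.876). Kcna5 differed by -0.48 ± 0.17 (SE, adjusted p = 0.0435), and by -0.15 in the slide fit. Its call was lost under 9 of 17 alternatives, among them without the FC array of SC mouse 54 or 58 or of CM mouse 54 or 56. Kcnh8, not well above background on any CM FC array, was at least 1.39-fold lower (adjusted p = 0.0167), and its fitted difference turned from -0.65 to 0.26 in the slide fit. Kcnk7 was called lower while not well above background on any FC array of either diet, so that no fold is given for it.

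In ST, with each gene taken by its row of highest mean, Kcnu1 was the 1 gene called higher on CM without overlap of the groups. It encodes a potassium channel known from sperm. It read 8.95, 8.98, 8.60 and 8.54 on SC and 9.25, 9.27, 9.24 and 9.11 on CM, a difference of 0.50 ± 0.09 (SE, adjusted p = 0.00484), and within slide 1 the CM arrays exceeded the SC array by 0.27. The same probe differed by 0.24 ± 0.07 (SE, adjusted p = 0.104) in HT, where SC and CM did not overlap either, and by 0.12 ± 0.08 (SE, adjusted p = 0.292) in FC. Its ST difference in the slide fit was 0.32 and was not called.

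In HT, the row nearest to a call was Kcnh3, at 9.62 to 11.46 on SC and 9.39, 9.23, 9.36 and 10.57 on CM, a difference of -1.30 ± 0.30 (SE, adjusted p = 0.0547) with overlapping groups. It passed the threshold with each of 3 other ways of processing the signal and without the HT array of SC mouse 52 or 58 or of CM mouse 58, and within slide 2 the 4 CM arrays differed from the SC array by -0.30. Kcnj4 differed by -1.03 ± 0.40 (SE, adjusted p = 0.255). The means of cortex markers were 5.94 to 7.03 on SC HT and 5.85 to 6.12 on CM HT, those of striatum markers were 10.25 to 11.70 and 10.07 to 10.81, and their part in the Kcnh3 and Kcnj4 values was not tested.

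**Figure D4:**
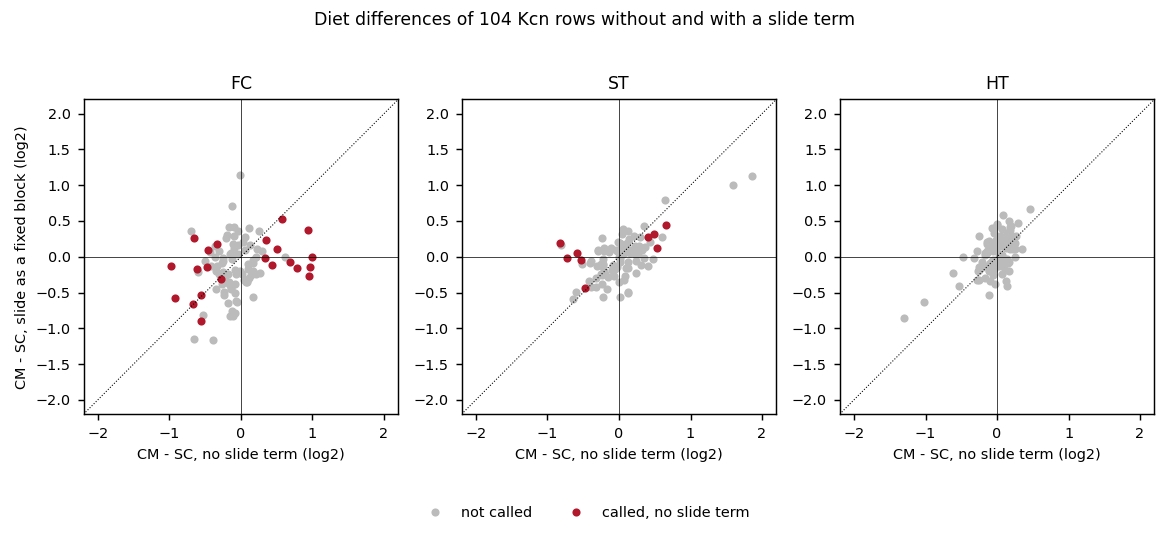
CM-SC log2 difference of the 104 Kcn rows in FC, ST and HT in a model with a fixed slide term (vertical axis) against the same difference without a slide term (horizontal axis). Red points are rows called without the slide term, 22 in FC, 9 in ST and none in HT, and no row was called with it.

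Whether the diet difference itself differed between regions was tested as an interaction. It was called for 21 Kcn rows between FC and ST (20.2%, against 30.1% of all rows), and for 15 between FC and HT (14.4%, against 20% of all rows). Between ST and HT limma called 0, with 20 rows at an unadjusted p under 0.05 (19.2%, against 14.8% of all rows). Of the 22 rows called in FC, 16 had the opposite sign in ST, and Kcna4, Kcna6, Kcna7, Kcnd1 and Kcnn3 were called in both with opposite signs. How often rows of the whole array did so was not counted, so that these numbers do not set Kcn rows apart from the array. On slide 1, Kcna4, Kcna7, the BC048782 row of Kcna6 and the NM_008423 row of Kcnd1 lay below all other arrays. The slide fit called no interaction, and in that fit 2, 5 and 5 Kcn rows had an unadjusted p under 0.05 between FC and ST, FC and HT, and ST and HT, or 1.92%, 4.81% and 4.81% of them against 4.68%, 4.8% and 1.85% of all rows.

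The values of 2 genes went with those of markers of the choroid plexus, the tissue that secretes cerebrospinal fluid. Kcne2 and Kcnj13 encode an accessory subunit and an inward rectifier of its epithelium, and Kcne2 was chosen after its values were seen. On the CM ST arrays Kcne2 read 7.40, 5.82, 7.40 and 12.17 and Kcnj13 8.45, 7.47, 8.70 and 12.85, so that mouse 58 stood apart for both. The mean of 8 choroid plexus markers on those arrays was 8.31, 7.54, 8.52 and 12.16. The SC ST arrays read 7.02, 4.97, 6.10 and 6.29 for Kcne2 and 8.23, 6.85, 7.53 and 7.31 for Kcnj13, with marker means of 8.44, 6.85, 7.94 and 8.10. The CM-SC difference in ST was 1.86 ± 1.19 (SE, adjusted p = 0.345) for Kcne2 and 1.59 ± 0.85 (SE, adjusted p = 0.249) for Kcnj13, and for Kcnj13 it was 0.83 without the array of CM mouse 58. The part of the markers in these values was not tested. Kcnj8, which marks the mural cells of vessels, was called in no contrast on SC and in none between diets.

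**Figure D5:**
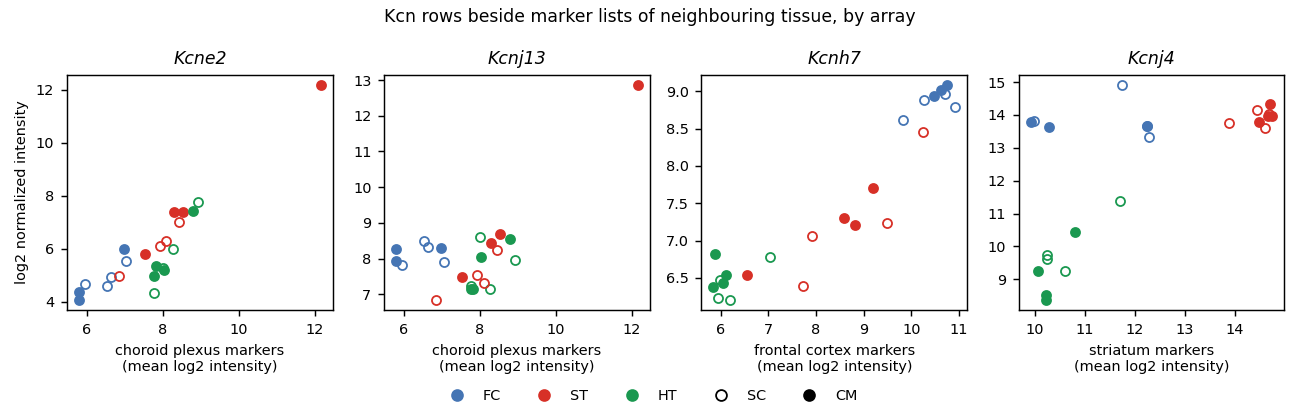
Log2 normalized intensity of Kcne2, Kcnj13, Kcnh7 and Kcnj4 on each array (vertical axes) against the mean log2 intensity of the marker list named on the horizontal axis, with open points for SC, filled points for CM and colors for the regions. The CM ST array of mouse 58 is the highest point for Kcne2 (12.17) and Kcnj13 (12.85) at a choroid plexus mean of 12.16, and the ST point nearest to FC for Kcnh7 is that of SC mouse 54.

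Rows of the same gene did not always move together. Kcnc1, a fast voltage-gated channel, had a row NM_001112739 that rose on CM in FC (0.51 ± 0.17 SE, adjusted p = 0.034) and a row NM_008421 that fell (-0.27 ± 0.10 SE, adjusted p = 0.0465). Their probes match different places of the gene on chromosome 7 (build mm9, plus strand), the first at chr7:53693712-53693771 and the second averaged over probes at chr7:53688622-53688681 and chr7:53682767-53682826. The first 30 of the 60 bases of each probe are given in that order to show that the sequences are distinct.
Kcnc1 NM_001112739: gagattcgagcatgaaataaattttgtaac
Kcnc1 NM_008421, first probe: gccttgccgtcttgtacgacagactttttt
Kcnc1 NM_008421, second probe: tgtctggagactcacgagcgcttcaacccc
The slide fit gave 0.11 and -0.30, and each of the 2 calls was lost under 10 of 17 alternatives, 5 of which left out a single array. For Kcna6, the BC048782 row rose in FC, as above, while the NM_013568 row differed by -0.17 ± 0.12 (SE, adjusted p = 0.299). Both rows of Kcnq5 fell in HT alike, but in the ST-FC contrast on CM they were called in opposite directions (-0.35 ± 0.10 SE, adjusted p = 0.00596, and 0.29 ± 0.11 SE, adjusted p = 0.0226), as were the rows AK017560 and NM_010610 of Kcnma1 in the HT-ST contrast on CM (-0.74 ± 0.12 SE, adjusted p = 2.19e-05, and 0.28 ± 0.10 SE, adjusted p = 0.0254).

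Genes that work with potassium channels without a Kcn name were read from 3 fixed lists. Of 12 rows of sodium-potassium pumps and potassium-coupled transporters, 6 were higher and 2 lower in HT than in FC on SC (43.2% of all rows were called there), 3 were higher in HT than in ST, and none was called between ST and FC. Of 10 auxiliary proteins, 2 were higher and 3 lower in HT than in FC, among them Dpp6, a partner of A-type channels, which was 1.35 higher in HT than in FC (adjusted p = 1.84e-07). Of 3 hyperpolarization-activated channels 2 were higher in HT than in FC and none was lower. Between diets, 2 of the 12 pump or transporter rows and 2 of the 10 auxiliary rows were called in FC, where 28.6% of all rows were, and no row of these 2 lists was called in ST or HT.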

How the data were processed

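RNA of 23 brain samples was hybridized to one-color Agilent mouse arrays. Per the file headers, the deposited scanner files hold spot and background intensities extracted with Agilent Feature Extraction 10.7.3.1, with probe positions on mm9. The deposited table holds log2 values that the authors made by normexp background correction of the median intensity (offset 0), quantile normalization, a filter keeping probes brighter, on at least 4 arrays, than 1.1 times the 95th percentile of negative control spots, and averaging of probes by transcript identifier. Repeating these steps from the scanner intensities gave the same 31395 rows to within 5e-09. Spot flags (well above background, saturated) came from the scanner files, and no Kcn row was saturated. Precision is set by the number of arrays.

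Differences were tested with limma 3.58.1 in R 4.3.3 on all 23 arrays, as group means with gene-by-gene array weights, the mouse as a random block (correlation -0.0398, statmod 1.5.0), moderated variances and Benjamini-Hochberg adjustment over all 31395 rows. Within 1 slide, differences of means are given without a test. The mouse label pairs the regions of 1 animal, and deviations from the group means of its regions correlated at -0.486 to 0.131 (median 0.0236, 22 pairs). Gene names came from the scanner files, and 96 of the 104 rows matched a RefSeq accession, all with the same symbol. A gene with several rows is given by the row with the highest mean, and rows called in opposite directions are both given. Named are the 4 widest rises and falls of each SC region contrast and the 3 of each diet contrast, among called rows whose groups do not overlap, plus subunits with known roles in feeding or in these regions. Other names were chosen after their values were seen. Markers of regions and cell types were read as lists, of which the vascular, pituitary and red blood cell lists gave no Kcn comparison. The genes, lists and tests were chosen with earlier results of these data known. The fit was tested on simulated data. Alternatives were slide as a fixed or random block, no mouse block or a fixed one, other array weights, background offset, scaling and filters, and leaving out each array. 1 CM FC array was not used here, and results for some genes are not reported here.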

Additional observations from a re-analysis of the deposited data

Results flagged for a closer look

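In 12 of 225 groups of 4 arrays, over 45 named rows, 1 array stood apart from the other 3 by Dixon's criterion, where chance gives about 1 in 20. The HT array of SC mouse 58 was low for Kcnj3 (7.8241, the others 8.5806 to 8.6156), Kcnc2 (10.792, the others 11.429 to 11.522) and Kcnq3 (8.1513, the others 8.9569 to 9.0656). It was the only SC HT array on slide 2. For Kcnh3, the HT array of CM mouse 58 was high (10.568, the others 9.234 to 9.3909), as was the FC array of SC mouse 54 (15.061, the others 14.751 to 14.794). For Kcna7, the FC array of SC mouse 52, which alone of its group lay on slide 2, was high (8.7871, the others 8.1048 to 8.2097). Kcnh4 was low in FC of SC mouse 58 (8.2078, the others 8.3216 to 8.3411), and Kcne1l was low in ST of SC mouse 54 (8.4476, the others 9.0076 to 9.0566). On CM, Kcnj10 was low in HT of mouse 56 (15.126, the others 15.23 to 15.244) and Kcnmb4 was low in ST of mouse 58 (11.274, the others 11.551 to 11.596). Kcna2 was low in ST of CM mouse 54 (9.6289, the others 9.9219 to 9.9319) and high in HT of the same mouse (10.324, the others 10.196 to 10.211).

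The diet difference itself differed between FC and ST for 9 named rows by limma's interaction term. The FC difference minus the ST difference was 1.72 for Kcna7 (adjusted p = 1.13e-05), 1.47 for Kcna4 (1.44e-05), 1.08 for Kcnj15 (0.047) and 1.03 for the NM_001112739 row of Kcnc1 (0.00617). It was -1.15 for Kcnn3 (0.000175), -0.91 for Kcnj2 (0.0247), -0.73 for the NM_023872 row of Kcnq5 (0.011), -0.54 for Kcnj8 (0.0379) and -0.38 for Kcnu1 (0.0238). Between FC and HT it differed for 5 rows. The FC difference minus the HT difference was 1.31 for Kcna7 (adjusted p = 4.3e-05), 1.19 for Kcna4 (5.25e-05), 1.04 for Kcnj15 (0.0437), -0.78 for Kcnn3 (0.00253) and -0.66 for Kcna5 (0.0467). Under a fixed slide term none of the 14 was called. In that fit the 2 values of Kcna7 were 0.0098 and 0.011, and that of Kcnq5 was -0.68.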

How the results depend on the processing

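The falls of Kcnj4, Kcnh3, Kcnv1 and Kcnip2 and the rise of Kcnj5 in HT against FC and ST on SC were called under all 19 alternatives run, whereas the diet calls depended on the slide and the array weights. A fixed slide term took the CM-SC counts in FC and ST from 22 and 9 to 0 and 0, the HT-FC count on SC from 62 to 38, and the ST-FC, HT-FC and HT-ST counts on CM from 71, 78 and 80 to 6, 34 and 47. In the HT-FC contrast on SC the share of all rows called went from 43.2% to 14.8%. Where no share of all rows stands beside a count in this section, the count does not set Kcn rows apart from the array. The counts for a diet difference between FC and ST (21) and between FC and HT (15) both went to 0. With the slide as a random block the CM-SC counts were 4 in FC and 0 in ST, and those of the 2 differences 5 and 2. Without array weights there were 9 calls in FC and 1 in ST, and 2 for the difference between FC and HT. Signals scaled to the 75th percentile gave 13 for the difference between FC and ST. In HT, 1 row (Kcnh3) was called with that scaling, with a background offset of 50 and with a filter on spots well above background, and 1 row was called for the difference between ST and HT with that offset. With that scaling 2 of 11 ST calls were higher on CM and 9 lower, against 4 and 5, and 11 of 18 FC calls were higher. Leaving out 1 array gave 14 to 23, 8 to 25 and 0 to 2 CM-SC calls in FC, ST and HT, 11 to 42, 58 to 63 and 44 to 56 calls in the ST-FC, HT-FC and HT-ST contrasts on SC, 62 to 69, 72 to 76 and 76 to 81 on CM, and 17 to 30, 9 to 20 and 0 to 1 for the FC-ST, FC-HT and ST-HT differences of the diet contrast (9 without the FC array of CM mouse 56). Under the fixed slide term the sign turned for 10 of the 22 rows called in FC (45.5%, against 32.7% of all rows called) and 2 of the 9 called in ST (22.2%, against 29.1%). Among the rows named by rule the sign turned for Kcna7 between diets in FC (-0.0089), between ST and FC (-0.046) and between HT and FC (-0.19). It also turned for Kcnj15 (-0.16) and Kcnk10 (0.17) between diets in FC. The CM-SC difference of Kcnh7 in ST was 0.15 and not called, between -0.87 (called) and 0.72 without the ST array of SC mouse 56 or 54. The cause was not tested. SC and CM mice share only the replicate numbers (correlations -0.321 to 0.136, 3 of 11 over 0.1, and 2 of 11 CM arrays closest to their own number). With the number as a replicate block the counts were 21, 9 and 0 between diets, 33, 63 and 50 between regions on SC and 73, 78 and 81 on CM, and 20, 14 and 0 for the differences. A fixed block for the mouse gave 35, 66 and 55 on SC and 74, 79 and 80 on CM, and no replicate block gave 22, 9 and 0, 36, 64 and 53, 71, 78 and 81, and 23, 17 and 0.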
